A study of Mus musculus with 4 samples.

Results

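The mitochondrial ribosomal protein genes of mouse were read here as every gene on the array whose annotated symbol starts with Mrpl or Mrps followed by a digit. The array measured 76 such genes among 18193 genes, 47 named for the large subunit (Mrpl) and 29 named for the small subunit (Mrps). They were covered by 156 probe sets, the groups of short oligonucleotides that read a transcript, 104 for Mrpl genes and 52 for Mrps genes. Where a gene had several probe sets, the brightest stood for it. The mean log2 signal of 67 members, 42 Mrpl and 25 Mrps, reached 3.138, the median of the probe sets of transcripts, and the counts below rest on these 67 and on 12585 genes past the same filter. The 9 members below it were Mrpl27, Mrpl33, Mrpl35, Mrpl36, Mrpl42, Mrps6, Mrps17, Mrps27 and Mrps28. Just below the filter lay Mrpl27 at a mean of 2.98, Mrpl33 at 3.06 and Mrps28 at 3.10, and just above it Mrps33 at 3.15, Mrpl37 at 3.26 and Mrpl45 at 3.34.

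The RNA came from MC/9 cells, a mouse mast cell line of strain background (B6 X A/J)F1 whose labels give liver as the tissue of origin and an age of 13 days. The series looks for genes behind an anti-inflammatory action of berberine on these cells. The control group was nontreated. The BER group received berberine at 10 microM, the DNP group received anti-DNP IgE, an antibody against dinitrophenyl, at 500 microg/ml, and the BER+DNP group received both at these doses. Those 3 groups were treated for 24 h and then cultured for 6 h, while the labels give no times for the control and name no step with antigen. All 4 groups are of the same line, grown with 2-mercaptoethanol, Rat T-STIM and fetal bovine serum. Each group holds 1 Affymetrix Mouse Genome 430 2.0 array, so values carry no replicate error, and the number of arrays limits the precision. An additive model of both treatments over the 4 arrays would leave 1 residual degree of freedom. It was not fitted, and no test was run.

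Mitochondrial ribosomes translate the few proteins encoded in mitochondrial DNA, all of them subunits of the respiratory chain and of ATP synthase. Their RNAs come from the mitochondrial genome, but every one of their proteins is encoded in the nucleus, made in the cytosol and imported. Some descend from bacterial ribosomal proteins, and others are found only in mitochondria. Berberine is a plant alkaloid known to gather in mitochondria and to inhibit complex I of the respiratory chain, whose mitochondrially encoded subunits these ribosomes make. The names do not always give the place in the ribosome: the products of Mrps18a and Mrps30 sit in the large subunit, and that of Mrps36 is a subunit of the oxoglutarate dehydrogenase complex.

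Across the 45037 probe sets of transcripts the arrays had Pearson correlations from 0.988 to 0.991 with each other. Of 11 mast cell markers 6 passed the filter, and the probe sets of Kit, Fcer1a, Ms4a2, Cpa3 and Tpsab1, which help to define mast cells, were below it. The summed linear signal of the mast cell list was 177 without treatment, 176 with BER, 203 with DNP and 203 with both. Of 7 epithelial markers 6 passed the filter, with Cdh1 below it, and their summed signal was 735, 652, 785 and 739 in the same order. The sums were lower in each array with berberine than in its partner, as was Krt14, the brightest of the list, by -0.26 and -0.18, while the median difference of the list was -0.11 in BER minus control and 0.04 in BER+DNP minus DNP. The fibroblast list, with 4 of 6 measured genes past the filter, summed to between 67.5 and 73.4, and the lymphoid and myeloid list, with 4 of 6 and with Ptprc below the filter, to between 104 and 117. The poly-A RNAs added as labelling controls (24 probe sets) had median log2 differences of -0.48 in BER minus control and -0.14 in BER+DNP minus DNP. The probe set for the 5′ part of beta-actin differed by -0.57 and -0.59 and that for its 3′ part by -0.31 and -0.22. For Gapdh the 5′ part differed by 0.05 and -0.08 and the 3′ part by -0.03 and 0.02. The part of these differences in the results on the ribosomal genes was not tested.

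Berberine was compared with its absence in 2 pairs of arrays that share no array, BER minus control and BER+DNP minus DNP. The 42 Mrpl genes had a median log2 difference of -0.11 in the first pair and -0.04 in the second, against 0.00 and -0.02 for all genes, and the second value was 0.01 when a gene was the median of all its probe sets. The 25 Mrps genes had medians of 0.02 and -0.05. The Mrps medians changed sign, to -0.06 and 0.01, once probe sets with shared-sequence suffixes were left out. The quartiles of the differences in BER minus control were -0.31 and 0.08 for Mrpl genes, -0.17 and 0.11 for Mrps genes and -0.15 and 0.14 for all genes. In a bulk culture, fewer cells expressing a gene and less RNA per cell cannot be told apart.

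Of the 42 Mrpl genes, 17 (40.5%) were lower with berberine in both pairs, where 29.7% of all genes were, and 8 (19.0%) were higher in both, where 25.4% of all genes were. Of the 25 Mrps genes, 7 (28%) were lower in both and 5 (20%) were higher, both below the shares of all genes. Over both subunits this made 24 lower (35.8%) and 13 higher (19.4%) of 67. Without the filter, 20 of 47 Mrpl genes and 9 of 29 Mrps genes were lower in both pairs, and 9 and 5 were higher, where 27.9% of all unfiltered genes were lower and 25.2% higher. In 16 Mrpl genes (38.1%) and 6 Mrps genes (24%) both arrays with berberine lay below both arrays without it, a pattern found in 19.7% of all genes. The reverse, both above, held in 8 Mrpl and 4 Mrps genes, 17.9% of the members and 16.1% of all genes.

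**Figure D1:**
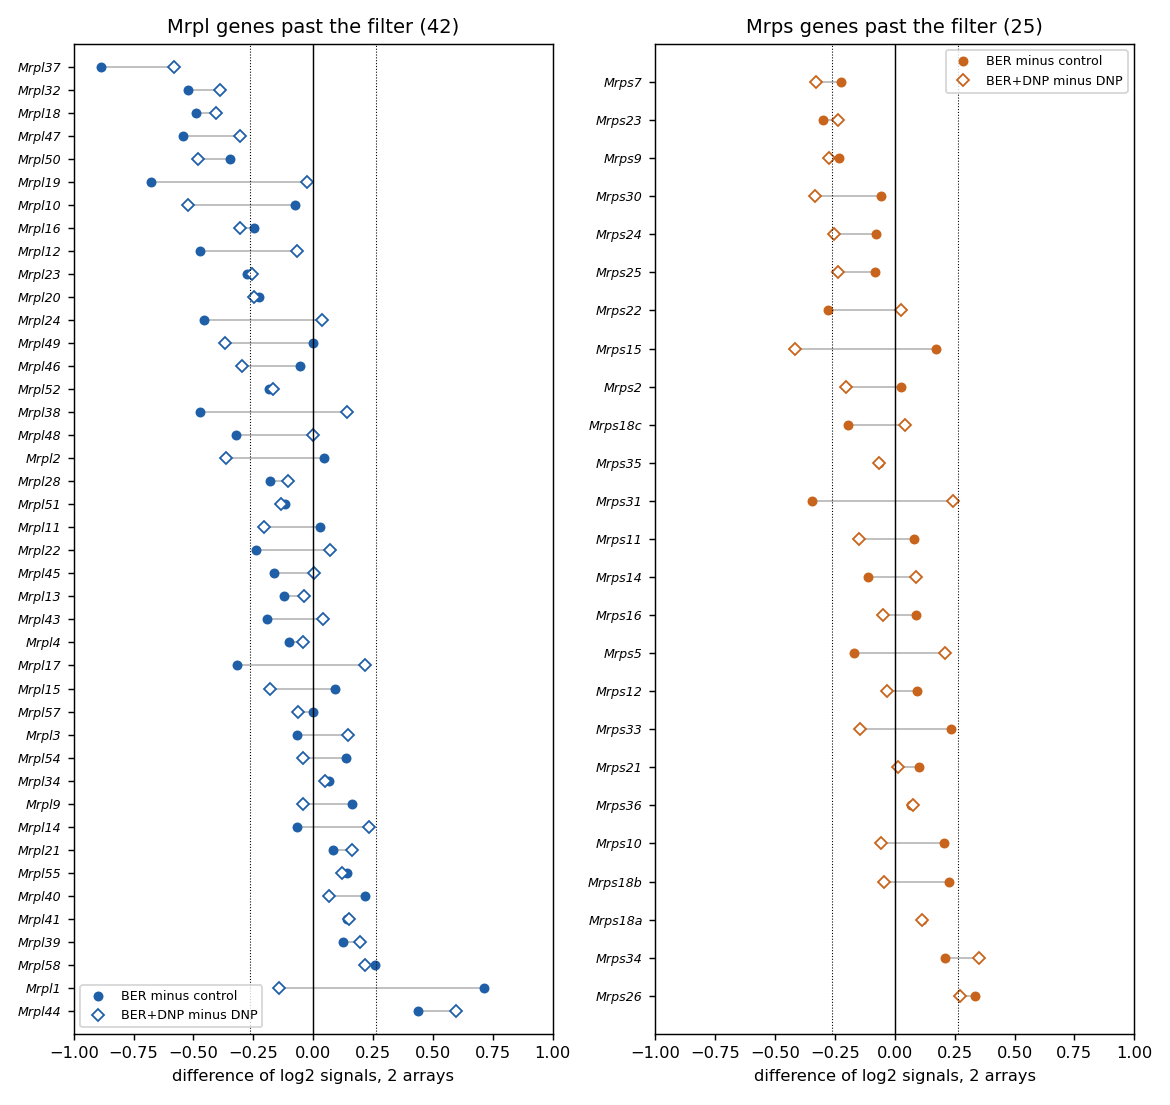
Difference of log2 signals in BER minus control (filled circles) and in BER+DNP minus DNP (open diamonds) for each of the 42 Mrpl genes (left) and 25 Mrps genes (right) past the filter, ordered by the mean of both values, each from 1 pair of arrays. Dotted lines mark 1.2-fold. Mrpl37, Mrpl32, Mrpl18, Mrpl47 and Mrpl50 lie beyond the lower line in both pairs, and Mrpl44 and Mrps26 beyond the upper line.

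At least 1.2-fold lower in both pairs were 5 Mrpl genes (11.9%), Mrpl37, Mrpl32, Mrpl18, Mrpl47 and Mrpl50, and 0 Mrps genes, where 3.22% of all genes were. At least 1.2-fold higher in both were Mrpl44 and Mrps26, 2.99% of the members, where 1.81% of all genes were. At 1.5-fold, 0 members were lower in both pairs and 0 were higher, where 0.159% and 0.0795% of all genes were. In BER minus control alone, 12 Mrpl genes (28.6%) and 3 Mrps genes (12%) were at least 1.2-fold lower, against 11.9% of all genes, and 2 and 1 were at least 1.2-fold higher, against 10.8%. In BER+DNP minus DNP alone, 10 Mrpl genes (23.8%) and 4 Mrps genes (16%) were at least 1.2-fold lower, against 11.5% of all genes, and 1 and 2 were higher, against 8.13%. Past 1.5-fold lay Mrpl19 and Mrpl37 on the lower side of BER minus control (0.985% of all genes), Mrpl1 on its higher side (1.01%) and Mrpl44 on the higher side of BER+DNP minus DNP (0.509%). On the lower side of BER+DNP minus DNP 0 members reached 1.5-fold (0.699% of all genes), and 0 members reached 2-fold in either pair. Of all genes 0.0318% were at least 2-fold lower and 0.0636% higher in BER minus control, and 0.00795% were so on each side in BER+DNP minus DNP.

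Mrpl37, which encodes a mitochondria-specific protein of the large subunit, had the lowest mean difference of all members. Its log2 signal was 3.51 without treatment, 2.62 with BER, 3.75 with DNP and 3.17 with both. Both arrays with berberine were below both arrays without it, by -0.89 and -0.58, and the BER value itself was below the filter. The gene has 1 probe set here, of a kind whose oligonucleotides can match more than 1 transcript. Mrpl32, whose bacterial counterpart is L32 and whose precursor is cut by a mitochondrial protease before it is built into the ribosome, read 4.69 without treatment, 4.17 with BER, 4.86 with DNP and 4.47 with both. The arrays with berberine were again the lowest, with differences of -0.52 and -0.39. Mrpl18, a counterpart of the bacterial protein that binds 5S rRNA in the central protuberance, read 6.52, 6.03, 6.78 and 6.37 in the same order of arrays. It differed by -0.49 and -0.41 and had no overlap between the arrays with and without berberine. Mrpl32 and Mrpl18 also have 1 probe set each.

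Mrpl47, a counterpart of bacterial L29 beside the mouth of the exit tunnel through which the new protein leaves, read 5.05 without treatment, 4.51 with BER, 4.92 with DNP and 4.61 with both. Its differences were -0.54 and -0.30, without overlap. Its other probe sets past the filter did not share them: they differed by -0.00 and 0.21 and by 0.01 and 0.05. Mrpl50, a mitochondria-specific protein of the large subunit, read 5.44, 5.09, 5.72 and 5.24, lower in both arrays with berberine by -0.35 and -0.48. A dim probe set of Mrpl50 below the filter differed by 0.11 and -0.22.

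**Figure D2:**
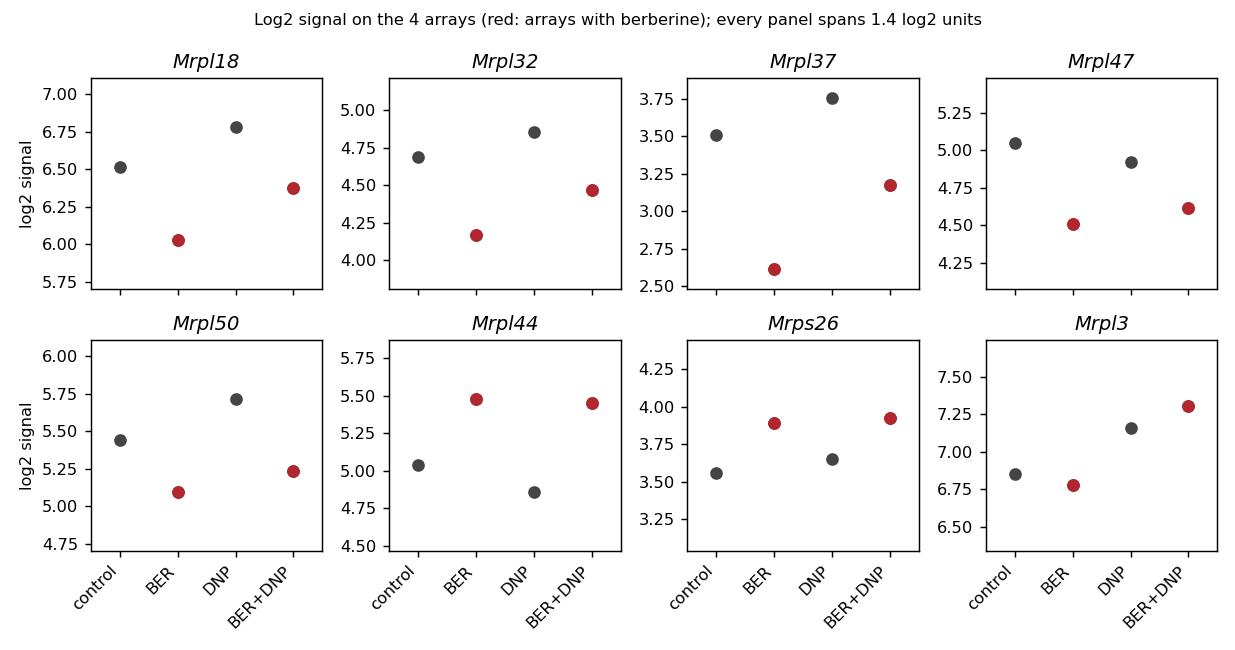
Log2 signal of 8 genes on the 4 arrays, 1 point an array, red for arrays with berberine; every panel spans the same range of log2 units and has its own zero point. Mrpl18, Mrpl32, Mrpl37, Mrpl47 and Mrpl50 read lower on both red arrays than on both others, Mrpl44 and Mrps26 higher, and Mrpl3 read highest on the arrays with anti-DNP IgE.

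The promoters of the 5 lower genes are shown because these genes were lower in both pairs, with 3 motifs found in many nuclear genes for mitochondrial proteins. Each sequence is that of RefSeq on build GRCm38.p6, from 250 bases before to 50 bases after the annotated start of the gene, read 5′ to 3′ on the strand of the gene, which is the minus strand in all 5. They lie at chr17:12916042-12916341 for Mrpl18, chr13:14612988-14613287 for Mrpl32, chr4:107066817-107067116 for Mrpl37, chr3:32736706-32737005 for Mrpl47 and chr4:49521034-49521333 for Mrpl50. Capitals mark matches on either strand to the consensus motif of NRF1, to CCGGAA (the core motif of ETS factors such as GABP) and to AANATGGC (a motif of YY1), and no matches overlap in these sequences.
Mrpl18: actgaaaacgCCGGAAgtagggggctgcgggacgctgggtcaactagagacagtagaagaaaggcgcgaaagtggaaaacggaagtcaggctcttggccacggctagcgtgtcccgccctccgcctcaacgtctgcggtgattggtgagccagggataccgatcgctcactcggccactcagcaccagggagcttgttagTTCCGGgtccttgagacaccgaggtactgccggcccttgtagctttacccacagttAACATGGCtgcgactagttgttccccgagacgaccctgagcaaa
Mrpl32: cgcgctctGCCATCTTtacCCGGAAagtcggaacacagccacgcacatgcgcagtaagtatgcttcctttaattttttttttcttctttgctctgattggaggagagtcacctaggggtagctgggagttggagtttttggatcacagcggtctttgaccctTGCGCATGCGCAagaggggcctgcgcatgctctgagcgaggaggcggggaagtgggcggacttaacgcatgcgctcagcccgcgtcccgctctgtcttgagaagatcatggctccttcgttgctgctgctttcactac
Mrpl37: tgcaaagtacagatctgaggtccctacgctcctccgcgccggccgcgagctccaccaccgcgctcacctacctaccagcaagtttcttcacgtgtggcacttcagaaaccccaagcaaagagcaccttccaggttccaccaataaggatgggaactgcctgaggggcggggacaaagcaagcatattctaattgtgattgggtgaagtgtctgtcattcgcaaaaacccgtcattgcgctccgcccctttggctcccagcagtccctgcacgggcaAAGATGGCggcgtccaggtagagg
Mrpl47: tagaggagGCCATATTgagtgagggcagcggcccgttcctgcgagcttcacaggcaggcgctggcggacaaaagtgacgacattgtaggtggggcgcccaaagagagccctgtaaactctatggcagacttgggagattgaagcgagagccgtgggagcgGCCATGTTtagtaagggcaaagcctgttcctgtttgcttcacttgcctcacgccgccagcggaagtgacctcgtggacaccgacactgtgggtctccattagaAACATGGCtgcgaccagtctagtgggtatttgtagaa
Mrpl50: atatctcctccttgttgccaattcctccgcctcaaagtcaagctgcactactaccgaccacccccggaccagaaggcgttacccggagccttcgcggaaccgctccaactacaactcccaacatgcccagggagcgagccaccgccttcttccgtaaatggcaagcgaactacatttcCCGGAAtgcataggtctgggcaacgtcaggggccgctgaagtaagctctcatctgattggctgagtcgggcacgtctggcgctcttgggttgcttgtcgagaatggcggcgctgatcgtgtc

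Positions are those of the first base of a match on the strand of the gene, counted from 1 at the annotated start and from -1 before it. Mrpl18 held the ETS motif at -240 and -50 and the YY1 motif at 7. Mrpl32 held all 3 motifs, NRF1 at -88, ETS at -231 and YY1 at -242. Mrpl37 held the YY1 motif alone, at 27, Mrpl47 held it at -242, -90 and 14, and Mrpl50 held the ETS motif alone, at -72. Mrpl44, the member with the highest mean difference, is shown for contrast; its promoter lies on the plus strand at chr1:79775768-79776067 and held the NRF1 motif at -36 and the ETS motif at 44.
Mrpl44: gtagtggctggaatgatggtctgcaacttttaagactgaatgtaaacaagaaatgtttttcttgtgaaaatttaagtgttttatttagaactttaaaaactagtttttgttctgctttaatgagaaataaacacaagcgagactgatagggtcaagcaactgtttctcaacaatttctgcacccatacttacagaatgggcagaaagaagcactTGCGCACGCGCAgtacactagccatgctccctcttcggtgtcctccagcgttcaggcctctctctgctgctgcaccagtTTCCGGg

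A promoter sequence was at hand for 67 of the 76 members, 41 Mrpl and 26 Mrps genes, taken at the first start listed for each gene. At least 1 of the 3 motifs was present in 50 of these (74.6%), against 20.9% of 27025 promoters of the same length. The ETS motif was in 37 (55.2%, against 15.2%), the YY1 motif in 21 (31.3%, against 6.23%) and the NRF1 motif in 5 (7.46%, against 1.31%). The 27025 promoters, 1 per gene, were not limited to genes on the array or to genes past the filter. Of the 59 members past the filter with a promoter, 20 were lower and 12 higher in both berberine pairs. Any of the motifs was held by 13 (65%) and 9 (75%) of them. The ETS motif was in 9 of the 20 lower genes (45%) and 9 of the 12 higher genes (75%), the YY1 motif in 8 (40%) and 3 (25%), and the NRF1 motif in 1 (5%) and 1 (8.33%). A match is a run of letters and does not show that a factor binds there.

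The large subunit genes were then read by place in the ribosome. Each place holds few genes, so its counts are descriptions to be set beside the 29.7% of all genes lower and 25.4% higher in both pairs. At the stalk, the flexible arm that recruits translation factors, Mrpl10 and Mrpl12 were lower in both pairs and Mrpl11 was not, with medians of -0.07 and -0.20 over these 3 genes. Mrpl10 read 4.32 without treatment, 4.24 with BER, 4.76 with DNP and 4.24 with both, with differences of -0.07 and -0.52 and with the DNP array alone standing high. Mrpl12, the counterpart of bacterial L7/L12, which also binds the mitochondrial RNA polymerase, read 6.62, 6.15, 6.61 and 6.54. Here only the BER array was clearly low, and the differences were -0.47 and -0.07.

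Around the exit tunnel the 6 genes had medians of -0.30 in BER minus control and 0.02 in BER+DNP minus DNP. All 6 read lower in BER than in control, but only Mrpl47 and Mrpl23 were also lower in the second pair. Mrpl23, a counterpart of the bacterial tunnel protein L23, read 6.48 without treatment, 6.20 with BER, 6.44 with DNP and 6.18 with both. Its differences of -0.27 and -0.25 were among the most even of the members. Mrpl17 went from -0.32 in the first pair to 0.22 in the second, with its BER array lowest at 4.39 and its BER+DNP array highest at 5.01. Its second probe set past the filter gave -0.25 and -0.10.

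In the central protuberance, the crest of the large subunit, 3 of 8 genes were lower in both pairs and 3 were higher, with medians of -0.12 and 0.03. Mrpl46 differed by -0.06 and -0.30 and Mrpl52 by -0.18 and -0.17, although a second probe set of Mrpl52 differed by 0.02 and 0.13. Mrpl58, a peptidyl-tRNA hydrolase that became part of the ribosome, was on the other side: it read 3.63 without treatment, 3.89 with BER, 3.84 with DNP and 4.05 with both, so both arrays with berberine were above both others, by 0.26 and 0.22. Mrpl38 differed by -0.47 and 0.14, and its second probe set past the filter by -0.09 and -0.22.

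The other 15 large subunit genes with bacterial counterparts had 7 lower in both pairs and 2 higher, beside the same shares of all genes, with medians of -0.07 and -0.04. Mrpl16, the brightest member by mean signal, which says nothing of its amount relative to other genes, read 7.58 without treatment, 7.33 with BER, 7.58 with DNP and 7.28 with both. The arrays without berberine were equal to the second decimal and those with it were lower by -0.25 and -0.31. Mrpl20, whose bacterial counterpart acts early in assembly of the subunit, read 6.10, 5.87, 6.16 and 5.91, lower by -0.22 and -0.25. Mrpl19 was far apart in the first pair only: it read 4.57, 3.89, 4.29 and 4.27, giving -0.68 and -0.03, while its second probe set gave -0.37 and -0.37. Mrpl1, the counterpart of the bacterial protein of the L1 stalk, read 3.59, 4.30, 3.69 and 3.55. Only its BER array was high, its differences were 0.71 and -0.14, and its second probe set gave -0.01 and -0.03. Mrpl2, a bright member, read 6.54, 6.58, 6.70 and 6.33.

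Among the other 10 mitochondria-specific large subunit genes, 3 were lower in both pairs and 3 higher, with medians of 0.00 and -0.05, so the lowest and the highest members came from the same class. Mrpl44, a protein with a ribonuclease III-like fold, read 5.04 without treatment, 5.48 with BER, 4.86 with DNP and 5.45 with both. Both arrays with berberine were above both others, by 0.44 and 0.60. Its 3 other probe sets past the filter gave -0.04 and 0.27, 0.10 and -0.09, and -0.35 and -0.11, so the difference rests on the brightest probe set. Mrpl39 differed by 0.13 and 0.19, and its second probe set by 0.27 and -0.14.

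In the small subunit, 3 of 13 genes with bacterial counterparts were lower in both pairs (29.7% of all genes) and 1 was higher (25.4%). The medians were 0.02 and -0.06. Mrps7, whose bacterial counterpart helps to build the head of the subunit, read 4.84 without treatment, 4.62 with BER, 4.74 with DNP and 4.41 with both, lower with berberine by -0.23 and -0.33 without overlap. Mrps9, also a protein of the head, was lower by -0.23 and -0.27, and its second probe set by -0.10 and -0.15. Mrps24 differed by -0.08 and -0.25. Mrps21 was the gene higher in both, by 0.10 and 0.01. The bright members Mrps16 (0.09 and -0.05) and Mrps18c (-0.19 and 0.04) had opposite signs in the 2 pairs.

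Of the 9 mitochondria-specific small subunit genes 3 were lower in both pairs (29.7% of all genes) and 2 were higher (25.4%). The medians were -0.06 and -0.04. Mrps23 read 5.01 without treatment, 4.71 with BER, 4.90 with DNP and 4.66 with both, lower by -0.30 and -0.24 without overlap. Its dim probe sets below the filter gave 0.00 and -0.15 and 0.40 and -0.41, and as the median of all its probe sets the gene gave 0.28 in BER minus control. Mrps25 differed by -0.08 and -0.24, and its second probe set by -0.54 and 0.42. Mrps26 read 3.56, 3.89, 3.65 and 3.92, higher with berberine by 0.33 and 0.27 without overlap, while a dim second probe set below the filter gave -0.05 and -0.00. Mrps34 was also higher, with 4.19, 4.40, 4.04 and 4.39 giving 0.21 and 0.35. Of the genes whose names do not match their place, Mrps30 differed by -0.06 and -0.33, Mrps18a by 0.11 and 0.11, and Mrps36 by 0.07 and 0.08. Counted by place, the 44 large subunit genes had medians of -0.09 and -0.04 and the 22 small subunit genes of -0.02 and -0.05.

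Across the 42 Mrpl genes the differences in the 2 berberine pairs had a Pearson correlation of 0.425 and a Spearman correlation of 0.383. Over the 25 Mrps genes they were 0.159 and 0.162, over all 67 members 0.361 and 0.292, and over all 12585 genes 0.231 and 0.197. These are descriptions across genes of 1 set of arrays, and genes are not independent replicates. The median size of the gap between a gene's 2 differences was 0.174 for Mrpl genes, 0.174 for Mrps genes and 0.167 for all genes. The widest gaps among members were those of Mrpl1, Mrps15 (0.17 and -0.42) and Mrpl10 in one direction and of Mrpl19, Mrpl38 and Mrps31 (-0.35 and 0.24) in the other. A second probe set of Mrps31 gave 0.49 and 0.30, and one of Mrps15 gave -0.36 and -0.00.

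**Figure D3:**
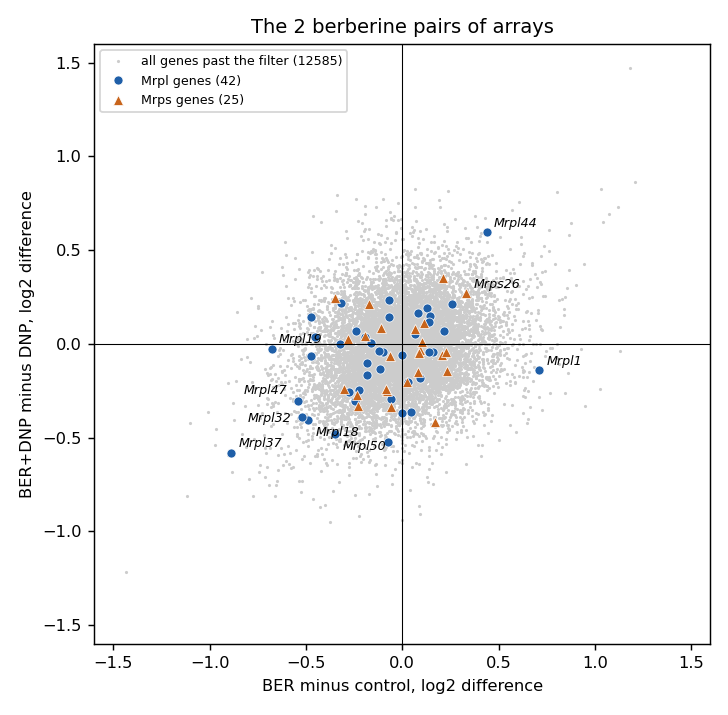
Difference of log2 signals in BER minus control (horizontal) against BER+DNP minus DNP (vertical) for the 12585 genes past the filter (grey), the 42 Mrpl genes (blue circles) and the 25 Mrps genes (orange triangles), each point 1 gene. The blue points reach further towards the lower left than the orange ones, and Mrpl44 stands alone at the upper right among members.

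Read array by array, the Mrpl genes were lowest on the BER array most often: 19 of 42 (45.2%), against 26.9% of all genes. On that array 4 (9.52%) had their highest signal, against 25.2% of all genes. Highest on the control array were 15 Mrpl genes (35.7%, against 24.6% of all genes). On DNP 14 were highest (33.3%, against 29.5%) and on BER+DNP 9 (21.4%, against 20.8%). The median deviation of Mrpl genes from each gene's own mean was 0.06 on the control array and -0.07 on BER. It was 0.05 on DNP and -0.02 on BER+DNP. The Mrps genes had another order, with 11 of 25 (44%) lowest on BER+DNP, against 23.6% of all genes. On BER 3 (12%) were lowest, against 26.9% of all genes. The direct difference between BER+DNP and control had a median of -0.08 for Mrpl genes and -0.08 for Mrps genes, against -0.00 for all genes.

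**Figure D4:**
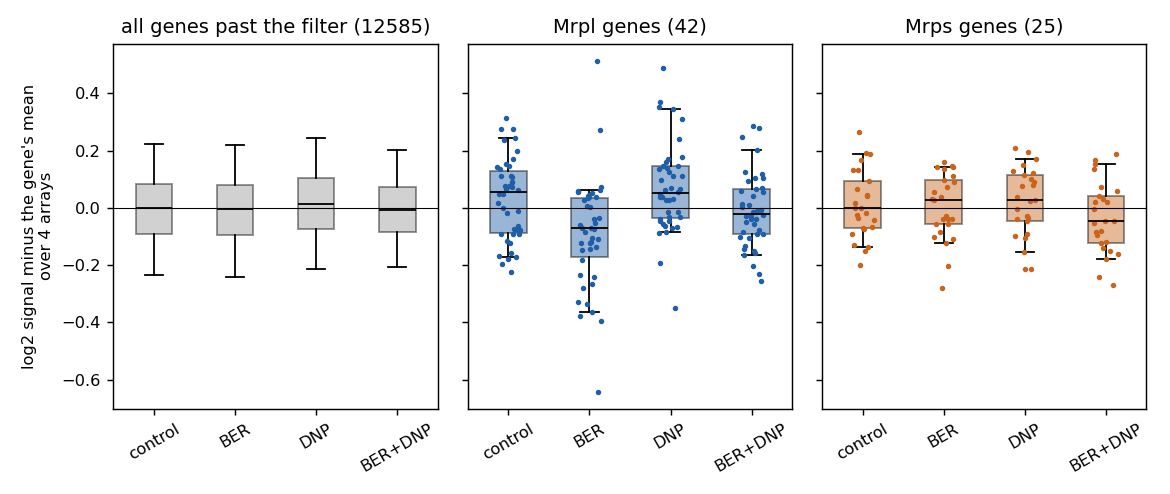
Log2 signal of each gene on an array minus that gene's mean over the 4 arrays, for all genes past the filter, Mrpl genes and Mrps genes; boxes span the quartiles with a line at the median, whiskers the 5th to 95th percentiles, and points are single members. The Mrpl box is lowest on the BER array (median -0.07) and the Mrps box on the BER+DNP array (median -0.05).

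Anti-DNP IgE was read in the pairs DNP minus control and BER+DNP minus BER, which share no array with each other but use the same 4 arrays as the berberine pairs. The Mrpl genes had medians of 0.03 and 0.06, against 0.02 and 0.00 for all genes, and the Mrps genes 0.01 and -0.05. Higher in both pairs were 18 Mrpl genes (42.9%) and 7 Mrps genes (28%), where 29.4% of all genes were. Lower in both were 7 Mrpl genes (16.7%) and 9 Mrps genes (36%), where 26% of all genes were. Both arrays with the antibody were above both without it in 6 of 42 Mrpl genes and 3 of 25 Mrps genes. These were Mrpl3, Mrpl9, Mrpl11, Mrpl15, Mrpl17, Mrpl46, Mrps11, Mrps14 and Mrps22. Of all genes 18.1% had that pattern. Both arrays with the antibody were below both others in Mrpl14, Mrpl57, Mrps2, Mrps12, Mrps18c, Mrps21 and Mrps35. Of all genes 16.4% had this reverse pattern.

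Mrpl3, the counterpart of a bacterial protein that reaches towards the peptidyl transferase centre, was the only member at least 1.2-fold higher with the antibody in both pairs, where 1.99% of all genes were. It read 6.85 without treatment, 6.78 with BER, 7.16 with DNP and 7.30 with both, with differences of 0.31 and 0.52 and no overlap. Its second probe set gave -0.16 and 0.07. No member was at least 1.2-fold lower in both (1.62% of all genes). In BER+DNP minus BER, Mrpl17 was at least 1.5-fold higher (0.62, where 0.556% of all genes were) and Mrpl1 at least 1.5-fold lower (-0.74, where 0.358% were). The second probe sets past the filter gave 0.01 for Mrpl17 and -0.16 for Mrpl1 in that pair. In DNP minus control these 2 genes differed by 0.09 and 0.11, and 0 members were 1.5-fold lower or higher there (0.628% and 0.803% of all genes). At 1.2-fold, DNP minus control had 6 Mrpl genes and 1 Mrps gene higher (12.1% of all genes) and 4 and 2 lower (9.51%), and BER+DNP minus BER had 8 and 2 higher (9.45%) and 2 and 3 lower (8.99%). Mrpl18 (0.26 and 0.34), Mrpl37 (0.25 and 0.55), Mrpl32 (0.17 and 0.30) and Mrpl50 (0.28 and 0.15) read higher with the antibody in both pairs. They also are among the lowest with berberine, so that BER was their lowest array and DNP their highest. Mrpl20 and Mrps24, among others, had the same lowest and highest arrays. Mrpl47, the other gene at least 1.2-fold lower with berberine in both pairs, differed by -0.13 and 0.11 with the antibody. Mrpl14 (-0.30 and -0.00), Mrps7 (-0.10 and -0.20), Mrps2 (-0.04 and -0.27) and Mrps21 (-0.14 and -0.23) had the lowest mean of both differences among the members lower in both pairs.

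Probe sets of the same gene often gave different values. Past the filter, 21 members had more than 1 probe set, 53 probe sets in all. Over the 50 pairs of probe sets within a gene the differences had a Pearson correlation of 0.0754 in BER minus control and -0.134 in BER+DNP minus DNP, as a description. All pairs within a gene were used, so genes with many probe sets, such as Mrpl15, Mrps5 and Mrpl44, weigh most. In 12 of the 21 genes all probe sets had the same sign of the mean berberine difference, 6 lower and 6 higher. The median spread of that mean between the probe sets of a gene was 0.123, and the widest was 0.746, in Mrpl44. Counted by probe set, 34 of 99 (34.3%) were lower in both berberine pairs and 23 (23.2%) higher, where 28.9% and 25.5% of all 22519 probe sets past the filter were.

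**Figure D5:**
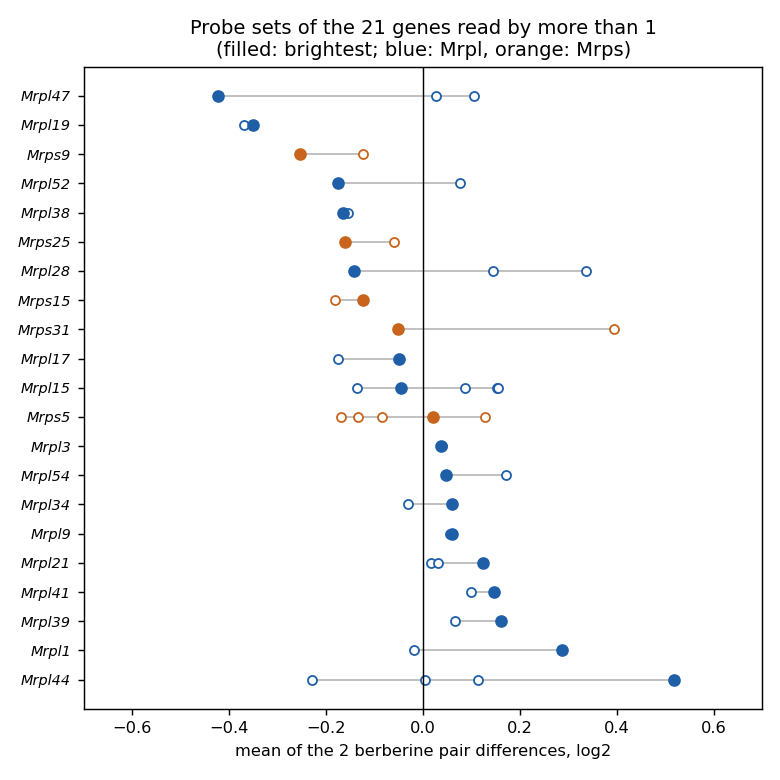
Mean of the 2 berberine differences (log2) for each probe set past the filter of the 21 members with more than 1, filled for the brightest probe set, blue for Mrpl and orange for Mrps. The brightest probe sets of Mrpl47 and Mrpl44 lie apart from the others of their genes, while those of Mrpl19, Mrpl38 and Mrpl9 lie close together.

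Genes that work with the mitochondrial ribosome were read the same way, beside the shares of all genes lower (29.7%) and higher (25.4%) in both berberine pairs. No list was tested. Mitoribosomal proteins with other symbols had medians of -0.03 and -0.12 over 4 genes, 2 of them lower in both berberine pairs and 0 higher: Gadd45gip1 (-0.08 and -0.18) and Chchd1 (-0.07 and -0.07) were lower, Dap3 gave 0.15 and -0.09, and Ptcd3 0.00 and -0.15. Of 9 translation factors and related genes (Mtfmt and Oxa1l) past the filter, 4 were lower in both and 2 higher. Tufm, the elongation factor that brings aminoacyl-tRNA, gave -0.17 and -0.25, the translocation factor Gfm1 -0.03 and -0.36, and the recycling factors Mrrf 0.16 and 0.23 and Gfm2 0.32 and 0.06. Of 16 genes for the loading of mitochondrial tRNAs, 7 were lower in both and 1 higher, with medians of -0.09 and -0.09. They comprise aminoacyl-tRNA synthetases and the amidotransferase subunits Qrsl1, Gatb and Gatc. Tars2 gave -0.26 and -0.25 and Sars2 0.16 and 0.32, whereas Iars2 (0.86 and -0.16) and Wars2 (0.85 and -0.26) had opposite signs.

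Of 16 genes for ribosome assembly and rRNA modification, 6 were lower in both berberine pairs (29.7% of all genes) and 4 higher (25.4%). The medians were 0.05 and -0.10. Eral1, which encodes a chaperone of the small subunit rRNA, read 4.15 without treatment, 5.09 with BER, 4.53 with DNP and 4.96 with both, higher with berberine by 0.94 and 0.43. As the median of its probe sets it gave -0.12 in BER minus control. The RNA helicase gene Dhx30 gave -0.39 and -0.32, the assembly factor gene Malsu1 -0.12 and -0.43 and the pseudouridine synthase gene Rpusd4 0.31 and 0.05. As the median of their probe sets, Dhx30 gave 0.033 and Malsu1 0.063 in BER+DNP minus DNP. Of 5 genes of mitochondrial transcription and genome upkeep 4 were lower in both and 1 higher, with medians of -0.04 and -0.10. Ssbp1, which coats single-stranded mitochondrial DNA, gave -0.40 and -0.36. The polymerase gene Polg gave -0.39 and -0.18 and its accessory subunit gene Polg2 0.09 and 0.07. Tfam gave -0.04 and -0.10, and Polrmt only -0.005 and -0.03. Tfb2m, Tefm and Twnk were below the filter. Ssbp1 gave 0.25 in BER minus control as the median of its probe sets and 0.16 in BER+DNP minus DNP without the suffixed ones.

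Of 6 regulators of nuclear genes for mitochondria 4 were lower in both pairs (29.7% of all genes) and 1 higher (25.4%). The medians were -0.11 and -0.11. Pprc1, a coactivator of such genes, read 5.92 without treatment, 5.40 with BER, 5.94 with DNP and 5.65 with both, lower with berberine by -0.52 and -0.29 without overlap. Nrf1, the gene of the factor whose motif was searched for, gave -0.15 and -0.20, and Gabpb1, a subunit of the ETS factor GABP, -0.18 and -0.32. The nuclear receptor gene Esrra went the other way, with 7.59, 7.97, 7.63 and 7.96 giving 0.39 and 0.33, also without overlap. Gabpa, Ppargc1a and Myc were below the filter.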

How the data were processed

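The authors deposited log2 signals of 45101 probe sets on 4 arrays, made with Affymetrix Expression Console per the submitters' processing notes; its version, the summary algorithm and the detection calls are unstated in the labels. The log2 scale was read from the values. Array medians were 3.13 (control), 3.15 (BER), 3.14 (DNP) and 3.14 (BER+DNP), so the values were used as deposited. The 64 control probe sets were set apart. Symbols came from a platform annotation dated 2016, and 4 member probe sets with several symbols were left out, so Mrpl30 and Mrpl53 are not analysed here. All 76 members matched RefSeq (GRCm38.p6) by gene identifier. A gene is its brightest probe set with 1 symbol, filtered on a mean log2 signal of at least 3.138. Values are differences between 2 arrays; folds are their antilogs. With 1 array a group no test was run: counts and medians stand beside those of all genes. The members, the 19 gene lists, the thresholds and the rule for naming genes were chosen with earlier results of these data known. Named were members with the largest mean berberine differences of equal sign in each role group and over all members, those extreme with anti-DNP IgE or between the berberine pairs, the brightest, those whose names mismatch their place, and up to 4 genes in each other list. Alternatives were quantile normalization, centring, the median of probe sets, leaving out suffixed probe sets, other filters and 32 added to linear signals. Python 3.11.15, numpy 2.4.6 and pandas 2.3.3 were used, and the steps were tested on simulated data.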

Additional observations from a re-analysis of the deposited data

Results flagged for a closer look

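With 1 array a group there was no check against replicates. Only the genes named by the rule above were searched for opposite directions in 2 pairs of arrays for the same treatment. The following had log2 differences of at least 1.2-fold in each, and the difference between the pairs was not tested. Other genes of the lists were not searched. One of them, the synthetase gene Ears2, gave 0.28 in BER minus control and -0.41 in BER+DNP minus DNP.

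Mrpl19 differed with anti-DNP IgE by -0.28 in DNP minus control and by 0.38 in BER+DNP minus BER. Its second probe set past the filter gave 0.11 and 0.11, so the opposite directions hold for the brightest probe set only. Mrpl38 differed by -0.31 and 0.31 in these pairs, and its second probe set past the filter by -0.20 and -0.32, again without opposite directions. Iars2, the mitochondrial isoleucyl-tRNA synthetase gene, differed by 0.60 and -0.42, and Wars2, the tryptophanyl-tRNA synthetase gene, by 0.64 and -0.47. Wars2 also differed with berberine in opposite directions, by 0.85 in BER minus control and by -0.26 in BER+DNP minus DNP. These pairs use the same 4 arrays, so the values of a gene for both treatments are not separate evidence.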

How the results depend on the processing

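Of 98 medians and counts recomputed under the alternatives, 88 stayed within 0.05 of a median or 1.5 times a count and 10 moved. The Mrpl median in BER minus control kept its sign under every alternative run, from -0.12 to -0.047, the latter with 32 added to the linear signals, and in BER+DNP minus DNP it went from -0.06 to 0.00987, the latter with the median of all probe sets. Without probe sets of suffix _x_at, _s_at or _a_at the Mrps medians were -0.059 in BER minus control and 0.012 in BER+DNP minus DNP. In BER+DNP minus control the Mrps median was then -0.13. Under that setting 4 of 17 Mrps genes (23.5%) were lower in both berberine pairs, against 29.2% of all genes. With the filter at the 75th percentile the Mrps medians were -0.13 in BER+DNP minus control and -0.040 in DNP minus control. Higher in both berberine pairs were then 5 of 31 Mrpl (16.1%) and 2 of 15 Mrps genes (13.3%), against 24.3% of all genes. Lower in both were 14 to 20 Mrpl and 4 to 9 Mrps genes over the alternatives, whose numbers of genes differ. Of all genes 27.7% to 32.7% were lower in both. Of 850 values of the named genes in the berberine pairs, 33 changed sign. Of these, 24 did so when a gene was the median of its probe sets and 6 when suffixed probe sets were left out. Of the 33, 12 had reported differences of at least 1.2-fold. With the median of all probe sets these were, in BER minus control, Eral1 (-0.12), Mrpl44 (-0.022), Mrpl47 (0.0076), Mrps23 (0.28), Mrps31 (0.069) and Ssbp1 (0.25), and, in BER+DNP minus DNP, Dhx30 (0.033), Malsu1 (0.063) and Mrpl47 (0.21). Without the suffixed probe sets they were, in BER+DNP minus DNP, Dhx30 (0.13), Mrpl44 (-0.087) and Ssbp1 (0.16). Among the smaller differences, Mrps25 (0.42) and Mrpl38 (-0.22) in BER+DNP minus DNP also changed sign with the median of all probe sets. Apart from the 12 above, 69 of the 850 values shifted by more than 0.167. Of these, 37 did so with 32 added to the linear signals. The causes were not tested. A fit with the pair of arrays as a block would leave 1 residual degree of freedom and was not run. The table gives no background level, so signal over background could not be stated.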
